A study of Mus musculus with 2 samples.

Results

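The 7 sirtuin genes, Sirt1 to Sirt7, were taken by symbol from a table of gene counts in mouse oocytes. They are 7 of 18364 genes with counts, and all 7 are also among the 10211 genes whose mean over both libraries was at least 20 counts, the floor used below. For each age 1 library was available, a pool of 18 oocytes with 3 from each of 6 ICR females. The oocytes were naturally ovulated and arrested in metaphase II (MII). The females of the young library were 3 months old and those of the aged library 12 months old, and no treatment or engineered allele is named for either. The comparison asks how sirtuin transcripts of the mature oocyte differed between these pools. With 1 library per age nothing was tested for age. Differences are described by their size, and the 95% intervals cover counting error only. The intervals take reads as independent, but several reads may stem from 1 amplified molecule, so the intervals may be too narrow.

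Sirtuins remove acetyl and other acyl groups from lysines and consume NAD+ with each reaction, releasing nicotinamide. Sirt1, Sirt6 and Sirt7 encode mainly nuclear proteins, Sirt2 a mainly cytosolic one, and Sirt3, Sirt4 and Sirt5 encode proteins of the mitochondrial matrix. The fully grown oocyte is transcriptionally silent and lives on stored messages, so transcript levels at MII reflect what was stored and what has been degraded or tailed since. In oocytes sirtuins are known for their part in spindle organisation, redox balance and the quality of ageing eggs, and SIRT2 is known to deacetylate BubR1, the checkpoint protein in the study's title.

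Totals were 19475110 counts (young) and 18597656 (aged). All 10 oocyte markers, such as Gdf9, Zp3 and Mos, had counts in both libraries and together reached 3444267 and 1783831 counts. Of 14 cumulus and granulosa markers, 5 (Amh, Inhba, Foxl2, Lhcgr and Star) had none in either library. The list summed to 487 young and 1077 aged counts, of which Cyp19a1 alone gave 436 and 1056. The 5 oviduct epithelium markers held 40 and 22 counts, the 5 leukocyte markers 1 and 0, the 4 haemoglobin genes 0 and 0, and the 4 sperm genes 548 and 385, all of the last from Prm2. In pooled oocytes, fewer oocytes holding a transcript and less of it in each oocyte cannot be told apart.

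The libraries were primed with oligo(dT), so what was captured first is the poly(A) end of each message. The annotated ends of the sirtuin transcripts are therefore shown for the members that lay furthest below equality (Sirt2, Sirt4), for the other mitochondrial members (Sirt3, Sirt5) and for Sirt1. Each run is 30 bases of the last exon, in the 3′ untranslated region of the longest protein-coding transcript of GENCODE mouse release 21 (build GRCm38). Capitals mark the polyadenylation signal nearest to the end.
Sirt1 (chr10:63319020-63319049, minus strand): ttaaagtcttatATTAAAattgtcatttga
Sirt2 (chr7:28788623-28788652, plus strand): tattagaaacaaATTAAAaaacaaaacaaa
Sirt3 (chr7:140863671-140863700, minus strand): tttcttgcatgaAATAAActtagtataaaa
Sirt4 (chr5:115478016-115478045, minus strand): tattagccaaatAATAAAttatttttaata
Sirt5 (chr13:43387627-43387656, plus strand): agaagaaaaagaggaaaaagggaaaagaag
Both signals were searched on the sense strand in the last 50 bases. Sirt3, Sirt4 and Sirt6 hold AATAAA there, as do 59.4% of 21832 genes with a complete coding transcript. Sirt1, Sirt2 and Sirt7 hold the variant ATTAAA without AATAAA, as do 13.0% of genes. The longest Sirt5 transcript holds neither, as is the case for 27.6% of genes. Elements of the type bound by the cytoplasmic polyadenylation factor CPEB, TTTTAT or TTTTAAT, were searched in the last 100 bases, where they may share bases with a signal. Sirt1 (TTTTAT) and Sirt4 (TTTTAAT) hold such an element, against 16.6% of all genes. These matches describe letters only, and Sirt1 and Sirt4 lay on opposite sides of equality.

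Scaled to library totals, Sirt2 and Sirt4 (2 of the 7 members) were lower in aged oocytes by 2-fold or more, and 0 members were higher by as much. Over all genes above the floor 10.6% were lower and 27.9% higher by 2-fold or more. The other 5 members, Sirt1, Sirt3, Sirt5, Sirt6 and Sirt7, had more counts per 1000000 library counts (CPM) in the aged library, by 1.33-fold to 1.73-fold. A ratio above equality was the common case, with 66.4% of all genes above 0 on the log2 scale and a median gene at 0.43 (quartiles −0.28 and 1.09). Relative to that median Sirt7 lay at −0.02, and Sirt1, Sirt3, Sirt5 and Sirt6 lay between 0.22 and 0.37 above it.

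**Figure D1:**
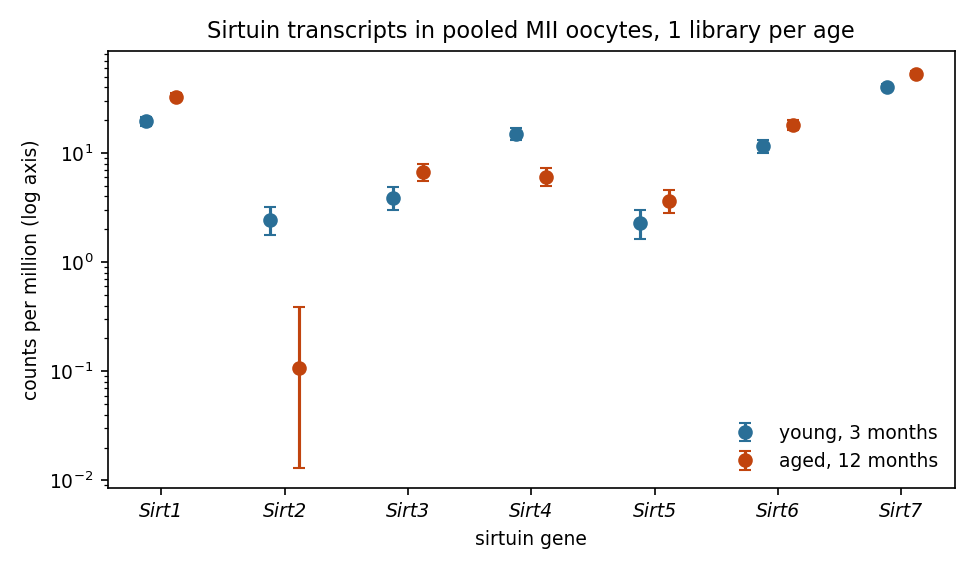
Level of each sirtuin gene in the young (blue) and aged (red) oocyte library, in CPM on a log axis, with 95% Poisson intervals of the count; 1 library per age. Sirt2 and Sirt4 are lower in the aged library, and the other 5 are higher by at most 1.73-fold on library totals (Sirt7 falls to −0.02 in log2 when centred on the median gene).

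Sirt2, the cytosolic sirtuin, which also deacetylates alpha-tubulin, had 47 young and 2 aged counts. These are 2.41 CPM (95% Poisson interval 1.77 to 3.21) and 0.108 CPM (0.0130 to 0.388). The intervals did not overlap, and the aged value was within the 0.161 CPM that a count of 0 would allow in that library. The ratio corresponds to 22.4-fold lower, with a wide counting interval of 5.88-fold to 191-fold, and the log2 ratio was −4.49. With 5 counts added to each library the log2 ratio was −2.83. Sirt2 was the single member whose whole interval lay beyond 2-fold, as it did on the lower side for 6.35% of all genes.

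Sirt2 passed the floor through its young count alone, so with 2 aged counts it had to lie far below equality to be included. Among the 1994 genes with a mean of 20 to 50 counts, 18.8% were at least 2-fold lower and 33.4% at least 2-fold higher. In that band 31 genes (1.55%) lay as low as Sirt2 or lower, and 23 (1.15%) lay as far on the other side. Ratios as far from equality as that of Sirt2 were thus held by few genes of that level on either side. Some markers of other cells were lower in the aged library as well. The cumulus and granulosa list without Cyp19a1 went from 51 to 21 counts, Cyp11a1 from 27 to 1, Inha from 14 to 0 and the epithelial keratin Krt18 from 11 to 0. Fshr went the other way, from 0 to 16. The epithelial genes Epcam (13 and 14 counts) and Krt8 (10 and 8 counts) had ratio intervals that included equality. The part of other cells in the Sirt2 counts was not tested.

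**Figure D2:**
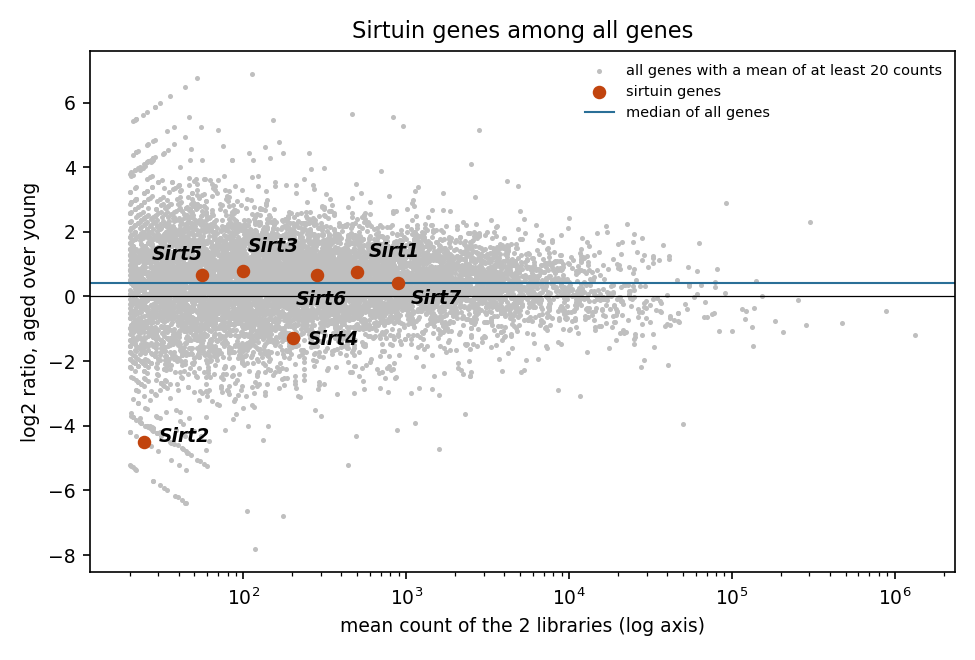
Log2 ratio of aged over young (library totals) against the mean count of the 2 libraries on a log axis, for all 10211 genes above the floor (grey) and the 7 sirtuin genes (red); the blue line is the median gene at 0.43. Sirt2 lies among sparse low-count genes at −4.49, Sirt4 at −1.30 below most genes of its level, and the other members inside the bulk (Sirt7 at −0.02 when centred on the median gene, Sirt1 at −0.02 with the length and GC correction).

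The mitochondrial sirtuins went in different directions. Sirt4, which acts as a lipoamidase and ADP-ribosyltransferase and restrains glutamate dehydrogenase, had 291 young and 113 aged counts. These are 14.9 CPM (13.3 to 16.8) and 6.08 CPM (5.01 to 7.31), intervals that did not overlap. The aged level was 2.46-fold lower (1.97-fold to 3.08-fold), so the interval includes 2-fold. Among 2966 genes with a mean of 200 to 1000 counts, 6.34% were at least 2-fold lower and 4.11% as low as Sirt4 or lower.

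Sirt3, the main deacetylase of the mitochondrial matrix, went the other way, from 75 to 124 counts. Its level was 3.85 CPM in the young library (3.03 to 4.83) and 6.67 CPM in the aged one (5.55 to 7.95), without overlap of the intervals and 1.73-fold higher (1.29-fold to 2.34-fold). Sirt5, which removes succinyl, malonyl and glutaryl groups, went from 44 to 67 counts. Its levels of 2.26 CPM (1.64 to 3.03) and 3.60 CPM (2.79 to 4.58) had overlapping Poisson intervals, although the interval of the ratio, 1.07-fold to 2.39-fold around 1.59-fold, lay above equality on library totals. Relative to the median gene Sirt3 lay at 0.37 and Sirt5 at 0.25 in log2. The lower ends of their counting intervals, 0.37 and 0.10 on library totals, were both below the 0.43 of the median gene, so neither was separated from that gene by its counts.

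The make-up of the mitochondrial sirtuin counts therefore differed between the libraries. Sirt4 gave 71.0% of the 410 counts of Sirt3, Sirt4 and Sirt5 in the young library (95% Clopper-Pearson interval 66.3% to 75.3%) and 37.2% of the 304 counts in the aged library (31.7% to 42.9%). Sirt3 gave 18.3% (14.7% to 22.4%) and 40.8% (35.2% to 46.5%). Sirt5 gave 10.7% (7.91% to 14.1%) and 22.0% (17.5% to 27.1%). These shares do not depend on the scaling of the libraries. After division by transcript length the share of Sirt4 was 71.4% and 37.5%, and that of Sirt3 20.6% and 46.0%. In the young library Sirt4 was the leading mitochondrial sirtuin, and in the aged library Sirt3 and Sirt4 had overlapping intervals.

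**Figure D3:**
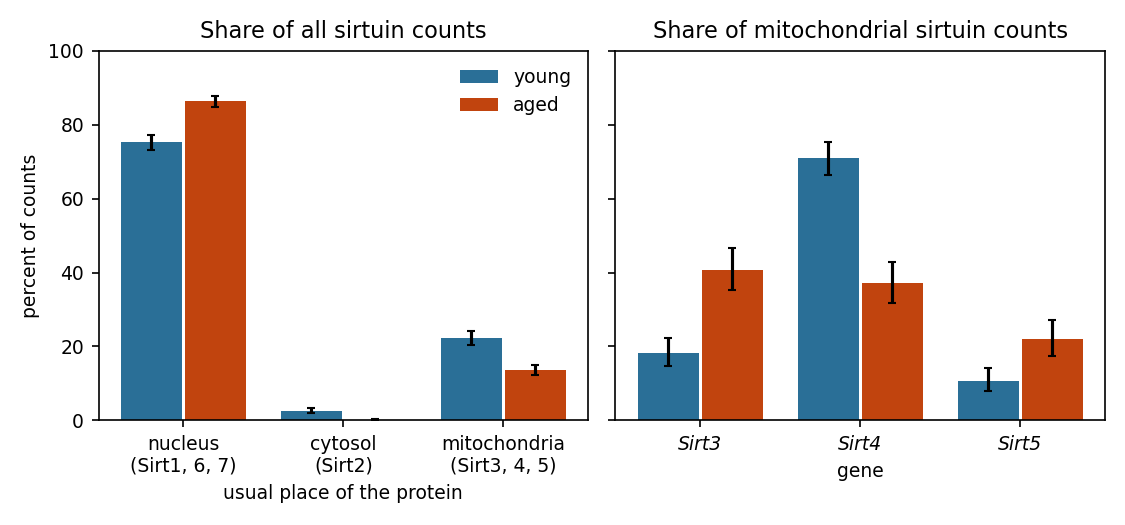
Left, percent of all sirtuin counts from genes whose proteins are mainly nuclear, cytosolic or mitochondrial; right, percent of the mitochondrial sirtuin counts from each gene. Bars are the young (blue) and aged (red) libraries with 95% Clopper-Pearson intervals; the Sirt4 share of the mitochondrial counts is 71.0% (young) and 37.2% (aged).

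The nuclear sirtuins were all higher in the aged library on library totals, by less than 2-fold. Sirt1, a deacetylase of histones, p53 and FOXO factors, had 379 and 611 counts, or 19.5 CPM (17.6 to 21.5) and 32.9 CPM (30.3 to 35.6), 1.69-fold higher in the aged library (1.48-fold to 1.92-fold). Sirt6, a histone H3 deacetylase of telomeric chromatin and DNA repair, had 225 and 337 counts, or 11.6 CPM (10.1 to 13.2) and 18.1 CPM (16.2 to 20.2), 1.57-fold higher (1.32-fold to 1.87-fold). Sirt7, a nucleolar sirtuin linked to ribosomal DNA transcription, had 784 and 992 counts, or 40.3 CPM (37.5 to 43.2) and 53.3 CPM (50.1 to 56.8), 1.33-fold higher (1.21-fold to 1.46-fold). For all 3 genes the Poisson intervals of the libraries did not overlap when scaled to library totals. Against the median gene at 0.43, the counting interval of the log2 ratio lay above it for Sirt1 (0.57 to 0.94) and included it for Sirt6 (0.40 to 0.90) and Sirt7 (0.27 to 0.54).

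These small differences depended on the scaling and on a correction for transcript length and GC content. TMM scaling, which shifts every log2 ratio by −0.37, gave log2 ratios of 0.38 for Sirt1, 0.28 for Sirt6 and 0.03 for Sirt7. Centring on the median gene turned the direction of Sirt7, at −0.02. When the median of genes of like length and GC content was removed, Sirt1 turned to −0.02, while Sirt6 reached 0.83 and Sirt7 0.58. The Sirt1 transcript is the longest of the family at 4430 bases with 44.0% GC, against 58.4% GC for Sirt6 and for Sirt7. Sirt2 and Sirt4 kept ratios below −1 under each of these scalings, from −4.37 to −4.91 for Sirt2 (−2.83 with 5 counts added) and from −1.30 to −1.72 for Sirt4.

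**Figure D4:**
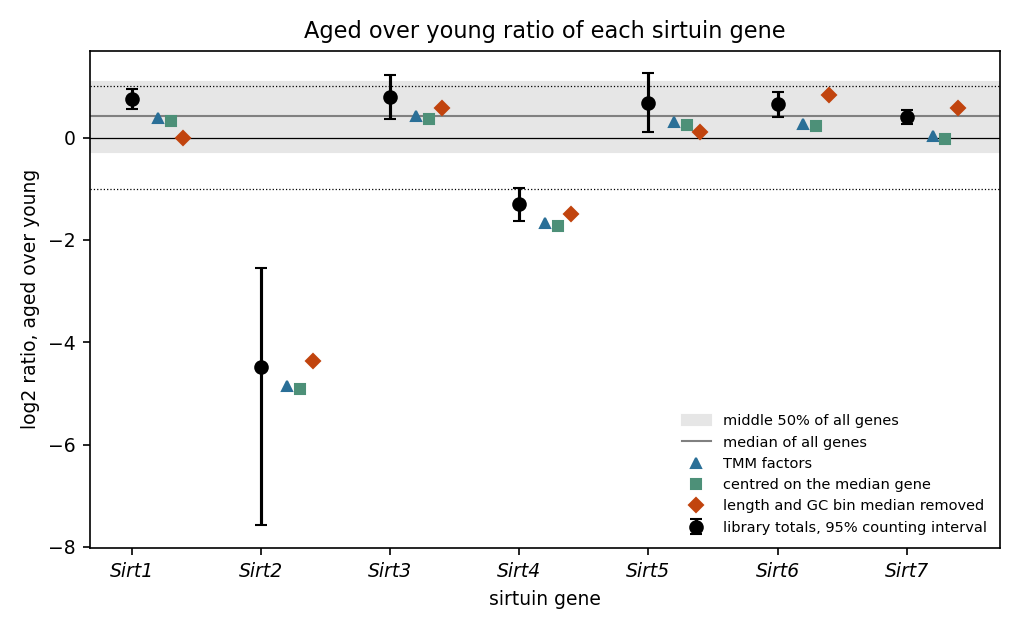
Log2 ratio of aged over young for each sirtuin gene: library totals with 95% Clopper-Pearson intervals (black), TMM factors (triangles), centring on the median gene (squares) and removal of the median of genes of like length and GC content (diamonds). Grey marks the middle 50% of all genes, dotted lines 2-fold; Sirt2 and Sirt4 stay below −1 under each setting shown, while Sirt7 (centred) and Sirt1 (length and GC) reach −0.02.

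Summed over the family, sirtuin transcripts took 94.7 CPM of the young library (1845 counts) and 121 CPM of the aged one (2246 counts), 1.27-fold higher. In log2 that is 0.35 (0.26 to 0.44), which is −0.08 relative to the median gene. The nuclear members gave 75.2% of sirtuin counts in the young library (73.2% to 77.2%) and 86.4% in the aged one (84.9% to 87.8%). The mitochondrial members gave 22.2% (20.3% to 24.2%) and 13.5% (12.1% to 15.0%), and Sirt2 gave 2.55% (1.88% to 3.37%) and 0.0890% (0.0108% to 0.321%). The 3 mitochondrial genes together were 1.29-fold lower, 21.1 against 16.3 CPM, because the fewer Sirt4 counts outweighed the additional counts of Sirt3 and Sirt5.

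The share of all genes past 2-fold, against which the family's 2 lower and 0 higher members are read, also moved with the scaling. On library totals the whole interval lay beyond 2-fold for 18.0% of genes on the higher side. TMM scaling put 17.2% of genes 2-fold higher and 16.3% lower, DESeq2 size factors 17.6% and 16.0%, and centring on the median gene 16.0% and 17.3%. Without the 100 most abundant genes in the totals the shares were 19.5% and 14.6%, without mitochondrial genes 28.3% and 10.4%, with 5 counts added 26.5% and 9.76%, and with the length and GC correction 13.6% and 14.9%. Sirt2 and Sirt4 were the 2 lower members under each of these. With no floor the shares were 29.6% and 15.4% with the same 2 members lower, and with a floor of 100 counts, which leaves out Sirt2, Sirt3 and Sirt5, 25.7% and 7.39% with Sirt4 lower. At 1.5-fold, 43.3% of genes were higher, as were Sirt1, Sirt3, Sirt5 and Sirt6, and 17.1% lower. At 3-fold, 12.8% of genes were higher, 5.51% lower and Sirt2 was the lower member. In the band of Sirt4, 27.4% of genes were 2-fold higher.

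Levels of different genes were compared after division by transcript length, here as CPM per kilobase of the longest protein-coding transcript. In the young library the order was Sirt7 (23.3), Sirt4 (8.33), Sirt6 (6.11), Sirt1 (4.39), Sirt3 (2.40), Sirt2 (1.14) and Sirt5 (0.932). Sirt2 and Sirt5 were not separated by their Poisson intervals. In the aged library it was Sirt7 (30.9), Sirt6 (9.58), Sirt1 (7.42), Sirt3 (4.15), Sirt4 (3.39), Sirt5 (1.49) and Sirt2 (0.0508). There Sirt3 and Sirt4 were not separated. Sirt7 was highest in both libraries. Sirt4 went from the second place to the fifth. With the median length of coding transcripts, Sirt2 and Sirt5 changed places in the young library. Without division by length, Sirt1 took place 2 in both libraries. Sirt4 then took place 3 and Sirt6 place 4 in the young library, and Sirt6 place 3 in the aged one. Which order is nearer the truth for libraries primed at the poly(A) end was not tested.

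Some counts may be shared with neighbours. No exon bases of Sirt4, Sirt5 or Sirt6 overlap another annotated gene. Sirt2 shares 42 exon bases at its 5′ end with Nfkbib on the opposite strand, which had 890 and 564 counts. Sirt3 shares 418 exon bases at its 3′ end with Ric8a (29 and 18 counts) and 342 at its 5′ end with Psmd13 (25 and 1 counts), both on the opposite strand. The interval of the Ric8a ratio included equality (log2 −1.56 to 0.28), and the effect of shared reads on Sirt3 was not tested. Sirt7 shares 124 exon bases on the same strand with the end of Mafg, which had 1861 and 2886 counts and was 1.62-fold higher. The use of strand in counting is not stated in the labels, and the effect of Mafg on Sirt7 was not tested.

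Of 9 genes of the salvage and Preiss-Handler routes, which rebuild NAD+ from nicotinamide, its riboside and nicotinic acid, 2 were above the floor. Another 5 lay below it, 1 had no counts in either library and 1, Pnp, was not matched. Of all 18364 genes with counts, 10211 were above the floor. Nampt, the rate-limiting salvage enzyme, had 67 counts in each library (log2 ratio 0.07, −0.44 to 0.58). Relative to the median gene it was at −0.36, and with the length and GC correction at −0.90. Nmnat2, a cytosolic adenylyltransferase, had 30 and 11 counts, 2.60-fold lower (1.27-fold to 5.76-fold). It passed the floor through its young count alone, so with 11 aged counts it had to lie well below equality to be included. Nmnat1, the nuclear adenylyltransferase, lay below the floor with 31 and 1 counts and is named after its values were seen. Nadsyn1 (8 and 0 counts) was 2.55-fold lower with the 0 taken as 3 counts, and the near end of its interval was at 1.63-fold. Naprt had 3 and 0 counts and Nmrk1 0 and 1.

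Of the 9 genes of NAD+ synthesis from tryptophan, 4 were above the floor, 2 at least 2-fold higher and 1 lower, against 27.9% and 10.6% of all genes. Another 2 lay below the floor, and 3 (Haao, Ido1 and Qprt) had no counts in either library. Ido2 (23 and 51 counts) was 2.32-fold higher and Afmid (64 and 124 counts) 2.03-fold higher. Acmsd, which diverts the pathway away from NAD+, was 2.46-fold lower (54 and 21 counts). Relative to the median gene 0 stayed 2-fold higher, and Ido2 alone did with the length and GC correction (1.05 in log2). Nadk, the NAD+ kinase and the most abundant of these genes, had 6569 and 4481 counts, 1.40-fold lower (1.35-fold to 1.45-fold). In log2 Nadk was at −0.91 when centred and −0.82 with the length and GC correction. Nnt, the mitochondrial transhydrogenase, was 2.35-fold higher (25 and 56 counts), but under 2-fold when centred (0.80 in log2) or corrected for length and GC (0.76). Slc25a51, the mitochondrial NAD+ carrier, was 1.58-fold higher (281 and 425 counts), but at −0.05 in log2 with the length and GC correction.

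Of 18 genes for enzymes that compete with sirtuins for NAD+, 7 passed the floor, and by the 2-fold rule 2 were higher and 2 lower (1 and 2 when centred on the median gene). All genes had 27.9% higher and 10.6% lower, so 2 of 7 higher is near the background. When centred all genes had 16.0% higher and 17.3% lower. Parp12, a mono-ADP-ribosyltransferase, was by counts the most abundant of them, with 31470 and 94240 counts, 3.14-fold higher (3.10-fold to 3.18-fold). Tiparp, another mono-ADP-ribosyltransferase, was 2.70-fold lower (9046 and 3203 counts) and the tankyrase gene Tnks 2.12-fold lower (198 and 89 counts). Tnks2 had 7 and 0 counts, 2.23-fold lower with the 0 taken as 3 counts (near end of the interval 1.38-fold), and Parp3 had 0 and 1. Parp1, the main consumer of NAD+ after DNA damage, had 93 and 103 counts and an interval across equality (log2 ratio 0.21, −0.20 to 0.63). The NAD+ glycohydrolase genes Cd38 and Bst1 had no counts in either library.

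Of 7 regulators of Sirt1, 6 were above the floor, 2 at least 2-fold higher and 0 lower, near the background of 27.9% and 10.6%. When centred 2 were higher and 1 lower, against 16.0% and 17.3% of all genes. Ccar2, whose product DBC1 inhibits SIRT1, was 2.71-fold higher (17 and 44 counts), and Senp1, a SUMO protease that acts on SIRT1, 3.31-fold higher (122 and 386 counts). Ccar2 passed the floor through its aged count, its young count being under 20. Hic1, a repressor of Sirt1 transcription, had 20 and 37 counts. Ndn had 0 and 13 counts, 4.54-fold higher with the 0 taken as 3 counts (near end of the interval 3.19-fold).

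Of 24 genes for nuclear and cytosolic proteins that sirtuins deacylate or act on, 20 passed the floor. By the 2-fold rule 3 were higher and 3 lower, against 27.9% and 10.6% of all genes. When centred 2 were higher and 5 lower, against 16.0% and 17.3%, and the median of the 20 log2 ratios was −0.11, against 0.43 over all genes. The medians of the other related lists ran from −0.66 (salvage and Preiss-Handler, 2 genes) to 0.86 (zinc-dependent deacetylases, 6 genes). The list includes 3 cell cycle substrates of SIRT2. Bub1b, which encodes BubR1, had 28659 and 12526 counts, 2.19-fold lower (2.14-fold to 2.23-fold). Fzr1, which encodes the anaphase-promoting complex activator CDH1, had 1826 and 696 counts, 2.50-fold lower (2.29-fold to 2.74-fold). Cdc20, the other activator, had 5009 and 3815 counts, 1.25-fold lower (1.20-fold to 1.31-fold). Hsf1, the heat shock factor deacetylated by SIRT1, was 5.02-fold lower (757 and 144 counts). Acss2, the cytosolic acetyl-CoA synthetase activated by SIRT1, was 7.96-fold higher from 5 and 38 counts (3.13-fold to 25.9-fold). It passed the floor through its aged count alone, so with 5 young counts it had to lie far above equality to be included. The acetyltransferase gene Ep300 was 2.79-fold higher (170 and 453 counts). Foxo4 had 0 and 19 counts, 6.63-fold higher with the 0 taken as 3 counts (near end of the interval 4.89-fold), and Ppargc1a 0 and 1.

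Of 17 genes for mitochondrial substrates, 11 passed the floor, and by the 2-fold rule 5 were higher and 1 lower, against 27.9% and 10.6% of all genes. When centred 2 were higher and 2 lower, near the background of 16.0% and 17.3%, and with the length and GC correction 2 were higher and 0 lower. Opa1, an inner membrane fusion protein deacetylated by SIRT3, was 4.89-fold higher (205 and 957 counts; 2.29 in log2, and 1.36 with the length and GC correction), and the DNA glycosylase gene Ogg1 3.47-fold higher (48 and 159 counts). Atp5o, a subunit of ATP synthase, was 2.70-fold lower (144 and 51 counts), but under 2-fold with the length and GC correction (−0.97 in log2). Sod2, the superoxide dismutase that SIRT3 activates, had 698 and 693 counts with an interval across equality (log2 ratio 0.06, −0.10 to 0.21). That interval lay below the median gene at 0.43. Relative to that gene Sod2 was at −0.37, and with the length and GC correction at −0.87. Idh2, another SIRT3 substrate, had 6 and 0 counts, 1.91-fold lower with the 0 taken as 3 counts (near end 1.12-fold), and Acss1 had 1 and 0.

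For comparison with the sirtuins, 6 of the 11 zinc-dependent deacetylase genes were above the floor, 1 at least 2-fold higher and 0 lower, against 27.9% and 10.6% of all genes. Hdac2 was 3.26-fold higher (214 and 667 counts), but under 2-fold with the length and GC correction (0.77 in log2). Hdac6, the other tubulin deacetylase beside Sirt2, was 1.95-fold higher (93 and 173 counts) and Hdac3 1.83-fold higher (254 and 444 counts). Of 7 acetyltransferase genes opposing sirtuins, 6 were above the floor. Ep300 was the single one at least 2-fold higher and none was lower, against 27.9% and 10.6% of all genes. Relative to the median gene 1 was higher and 2 were lower, against 16.0% and 17.3% of all genes. Kat2a was 1.74-fold lower (966 and 531 counts) and Atat1, the alpha-tubulin acetyltransferase, 1.63-fold lower (1480 and 869 counts). Over the 9 lists together, counting each gene once, 64 genes passed the floor, of which 16 were higher and 8 lower by 2-fold or more on library totals, near the 27.9% and 10.6% of all genes. When centred they were 8 and 14, against 16.0% and 17.3%. Of the remaining genes 28 lay below the floor, 12 had no counts in either library and 1, Pnp, was not matched to the table. The median of the 64 was 0.44 in log2, next to 0.43 for all genes, and the median of the 7 sirtuins was 0.65.

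**Figure D5:**
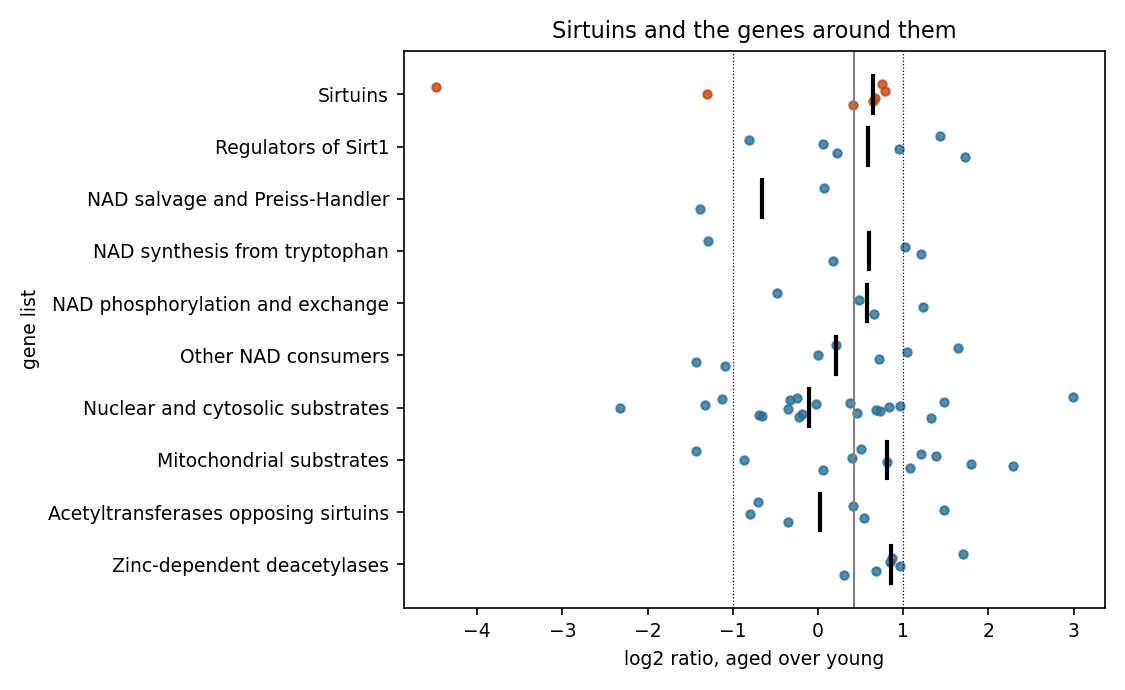
Log2 ratio of aged over young (library totals) for each gene above the floor in the sirtuin family (red) and in 9 lists of related genes (blue); black bars are list medians, the grey line is the median of all genes at 0.43 and dotted lines mark 2-fold. Sirt2 lies furthest to the left of all genes shown, at −4.49 from 47 and 2 counts.

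The authors' deposited table gives log2 ratios of young over aged of 4.49 for Sirt2 and 1.30 for Sirt4, and of −0.76 for Sirt1, −0.79 for Sirt3, −0.67 for Sirt5, −0.65 for Sirt6 and −0.41 for Sirt7. The authors' deposited table marks 6 of the 7 members at p below 0.001, 2 as lower and 4 as higher in the aged library, and does not mark Sirt5. Of the 15387 genes given a p-value in the authors' deposited table, 15.6% are marked as lower and 34.4% as higher. Such marks weigh 2 sets of reads against each other rather than 2 ages. With 2 libraries a gene's pattern is a single ratio, which very many genes share. Within 0.1 of the log2 ratio there were 801 other genes for Sirt1, 852 for Sirt7, 178 for Sirt4 and 6 for Sirt2.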

How the data were processed

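Counts per Ensembl gene were used as deposited by the authors, whole and unnormalized, for 1 library per age. Per the submitters' processing notes the build was mm9; aligner, counting tool and annotation: not given in the sources used here. Per the labels' protocols, cDNA from oligo(dT) priming was tailed and amplified by 18 and then 14 cycles with no molecular identifiers, so several reads may stem from 1 molecule. The log2 fold changes, the score (z value) and the p-value and q-value columns are as deposited by the authors, and only the log2 values and their marks were used.

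Symbols came from GENCODE mouse release 21 by Ensembl ID, matching 93.7% of counted genes. Ratios are log2 of aged over young on library totals. A count of 0 was replaced by 3 counts, with no ratio where the other library held at most 3. Intervals are exact Clopper-Pearson intervals of a gene's aged share of counts, or Poisson intervals of a count, at 95%. The floor was a mean of 20 counts and the rule of size 2-fold. The calculation was tested on simulated data. Length and GC content, found for 97.0% of genes above the floor, were corrected in 10 by 10 bins. Python 3.11.15, scipy 1.17.1, pandas 2.3.3 and matplotlib 3.10.9 were used, with TMM factors from edgeR 4.0.16 and size factors from DESeq2 1.42.0 in R 4.3.3.

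The members, the 9 gene lists and the 6 marker lists were chosen with earlier results of these data known. Named are all sirtuins, per list up to 3 genes above the floor with the largest difference, genes with 0 in a library, and Bub1b, Cdc20, Fzr1, Nampt, Parp1, Sod2 and Idh2. A single library per age leaves the spread between animals unmeasured.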

Additional observations from a re-analysis of the deposited data

How the results depend on the processing

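Sirt2 and Sirt4 stayed at least 2-fold lower under the 7 other scalings and corrections (TMM, DESeq2 size factors, centring on the median gene, totals without the 100 most abundant genes, totals without mitochondrial genes, 5 added counts, and the length and GC correction), and no member was 2-fold higher under any of them. Over these 7 settings 9.76% to 17.3% of all genes were 2-fold lower and 13.6% to 28.3% higher. With 5 counts added Sirt2 was at −2.83. With a floor of 100 counts 1 member was lower, Sirt4, against 7.39% of all genes, since Sirt2 (with Sirt3 and Sirt5) was below it. With 3-fold as the rule 1 member was lower, Sirt2, against 5.51% of all genes. With 1.5-fold 4 members were higher and 2 lower, against 43.3% and 17.1% of all genes. The log2 ratios of Sirt1, Sirt6 and Sirt7 were 0.38, 0.28 and 0.03 with TMM, 0.40, 0.29 and 0.05 with DESeq2 size factors, 0.33, 0.22 and −0.02 with centring, and 0.47, 0.36 and 0.12 without the 100 most abundant genes. Sirt3 was at 0.37 with centring, and Sirt4 at −1.67 (TMM), −1.65 (DESeq2) and −1.72 (centring). With the length and GC correction Sirt1 was at −0.02 and Sirt7 at 0.58. TMM, DESeq2 size factors, centring and totals without the 100 most abundant genes shift every ratio by −0.29 to −0.43. Totals without mitochondrial genes shift every ratio by 0.02. The 5 added counts and the length and GC correction move different genes by different amounts.

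Of the 64 related genes above the floor, 16 were 2-fold higher and 8 lower on library totals, against 27.9% and 10.6% of all genes. The shares over all genes moved with the setting as well and are given in brackets. With TMM scaling the related genes were 9 and 14 (17.2% and 16.3%), and the same with DESeq2 size factors (17.6% and 16.0%). Centring gave 8 and 14 (16.0% and 17.3%). Without the 100 most abundant genes 10 were higher (19.5%), and with the length and GC correction 9 (13.6%). A floor of 100 counts gave 9 and 5 (25.7% and 7.39%), fewer genes being counted. With no floor 15 were lower (15.4%). At 1.5-fold there were 28 and 14 (43.3% and 17.1%), and at 3-fold 6 and 1 (12.8% and 5.51%). Order by level moved for 7 of 28 ranks. No paired analysis was possible because each age has 1 library. With 1 library per age no library could be left out. The 2 aged counts of Sirt2, and mean counts of 99.5 for Sirt3 and 55.5 for Sirt5, limit those ratios to the intervals given.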
